A study of Mus musculus with 11 samples.

Results

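Collagen chain genes are the genes that encode the alpha chains of the collagens, and they were described here in otospheres, in the cochlear sensory epithelium (CSE) and in embryonic stem cells (ESCs) of the mouse. The members were all non-control probes of the scanner files whose accession maps to a gene symbol made of Col, a number, the letter a and a number, with 1 probe per gene, the one with the highest mean log2 signal over the samples. This gave 43 genes (63 probes) among 20837 named genes on the array, and 42 of the 43 were bright enough to be tested. The exception was Col19a1, and Col12a1 had no mapped probe and was not analysed here. Otospheres are floating spheres grown from dissociated CSE, and they were described in the study as cochlear stem or progenitor cells. RNA from 6 otosphere, 3 CSE and 2 ESC samples was labelled with Cy3 and hybridized to single-colour arrays, in order to ask which genes distinguish otospheres from the tissue they came from and from pluripotent cells. Otospheres and CSE came from ICR mice aged 1 day, with 20 cochleae of 10 mice pooled per preparation, so each preparation is a mix of animals. The spiral ligament and stria vascularis were removed from the CSE. Otospheres were grown from it in suspension with bFGF and IGF1 for 4 to 5 days, dissociated, grown again for 4 to 5 days (passage 1) and passed through a strainer to keep solid spheres. The ESCs were 2 different lines, G4-2 (ES1) and D3 (ES2), both at passage 13 and kept without feeder cells with LIF, and no strain was given for them. No sample carried an engineered allele in the labels.

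Collagens are secreted proteins in which alpha chains coil around each other into a helix, and the chains of a type fix its form. Fibrillar collagens build rope-like fibrils, FACIT collagens sit on the surface of fibrils, type IV collagens form the network of basement membranes, and type VI collagen forms beaded filaments near cells. In the cochlea, types II, IX and XI are known from the tectorial membrane, the gel that lies over the hair cells, and the same types make the fibrils of cartilage. Type IV collagens are known from the basement membranes below the sensory epithelium and around vessels, and inherited defects of several of these chains cause hearing loss.

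Values are log2 of the background-corrected median spot intensity with an offset of 16 added, after quantile normalization. A difference of 1 is a doubling of this sum, and for dim probes more than a doubling of the signal alone. Median raw intensity per array was 68 to 116 against a median background of 32 to 38. OS1 with OS2 and OS4 with OS5 differed by less than the noise between spots of a probe and were each averaged into 1 sample, which left 4 otosphere, 3 CSE and 2 ESC samples. The labels do not say that the samples were separate cultures or animals, so p-values measure only the spread between these samples. ES1, OS1 to OS3, CSE1 and CSE2 lay on 1 slide and ES2, OS4 to OS6 and CSE3 on the other. Slide therefore cannot be told apart from otosphere preparation or from ESC line. Of 6 pluripotency markers, 5 were higher in ESCs than in both other groups, the exception being the brightest probe of Nanog. Of 7 hair cell markers, 4 were lower in otospheres than in CSE, as were 7 of 9 supporting cell and 5 of 6 neuronal markers. So were 4 of 7 endothelial, 3 of 5 measured macrophage and 5 of 6 erythroid markers. Of 8 Schwann and satellite glia markers 3 were lower and 1 was higher. Of 8 pericyte and smooth muscle markers 2 were lower and 3 were higher. Over all probes tested 6.19% were lower and 4.84% higher. A change in bulk RNA can come from fewer cells of a type or from less RNA per cell, and these cannot be told apart here.

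Otospheres differed from CSE in 17 of the 42 collagen chains tested. The chains of cartilage and tectorial membrane fibrils and several FACIT chains were lower in otospheres, while chains of type IV and type VI were higher. By limma with an adjusted p under 0.05, 5 chains were higher in otospheres, which is 11.9% against 4.84% of all 47997 probes tested, and 12 were lower, which is 28.6% against 6.19%. The median difference over the 42 chains was -0.66 on the log2 scale, against 0.02 over all probes. Leaving out CSE2 or CSE3 left 3 or 2 of the higher chains, where 3.2% and 2.87% of all probes were higher. Leaving out CSE1 left 7 of the lower ones. In the comparison with ESCs, 20 chains were higher in otospheres (47.6% against 12.1% of all probes) and 2 were lower (4.76% against 15.6%). CSE had 23 chains higher than ESCs (54.8% against 13.2%) and 1 lower (2.38% against 15.6%). The F-test over the 3 groups called 27 chains, against 33.8% of all probes. The lower calls against ESCs, Col6a4 and Col22a1 in otospheres and Col6a4 in CSE, were all lost without ES1.

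**Figure D1:**
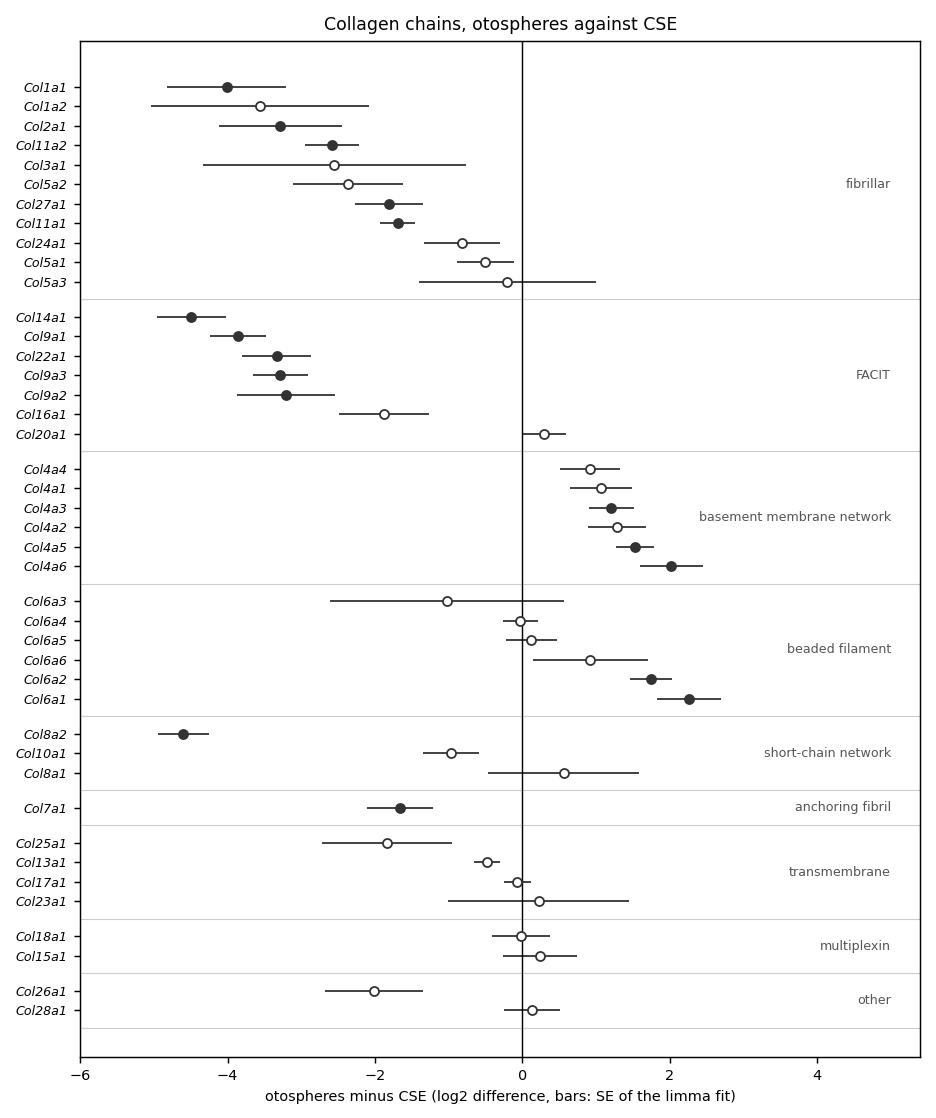
Difference between otospheres and CSE (log2, x axis) for the 42 collagen chains tested, grouped by class on the y axis, with bars for the SE of the limma fit. Filled points passed an adjusted p of 0.05, and all 5 filled points above 0 belong to type IV or type VI chains.

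By class, no fibrillar chain was higher in otospheres than in CSE and 5 of 11 were lower, with a class median of -2.36 on the log2 scale. Among 7 tested FACIT chains 5 were lower, with a median of -3.28. All 6 type IV chains had positive differences, with a median of 1.25, and 3 of them passed the test. The 6 type VI chains had a median of 0.52, and 2 passed. None of the 4 transmembrane chains and neither of the multiplexins Col15a1 and Col18a1 passed. The 17 called differences had the same sign within each slide. In each of these chains every otosphere sample lay on the same side of every CSE sample. That sign was therefore fixed in advance and is no separate support.

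**Figure D2:**
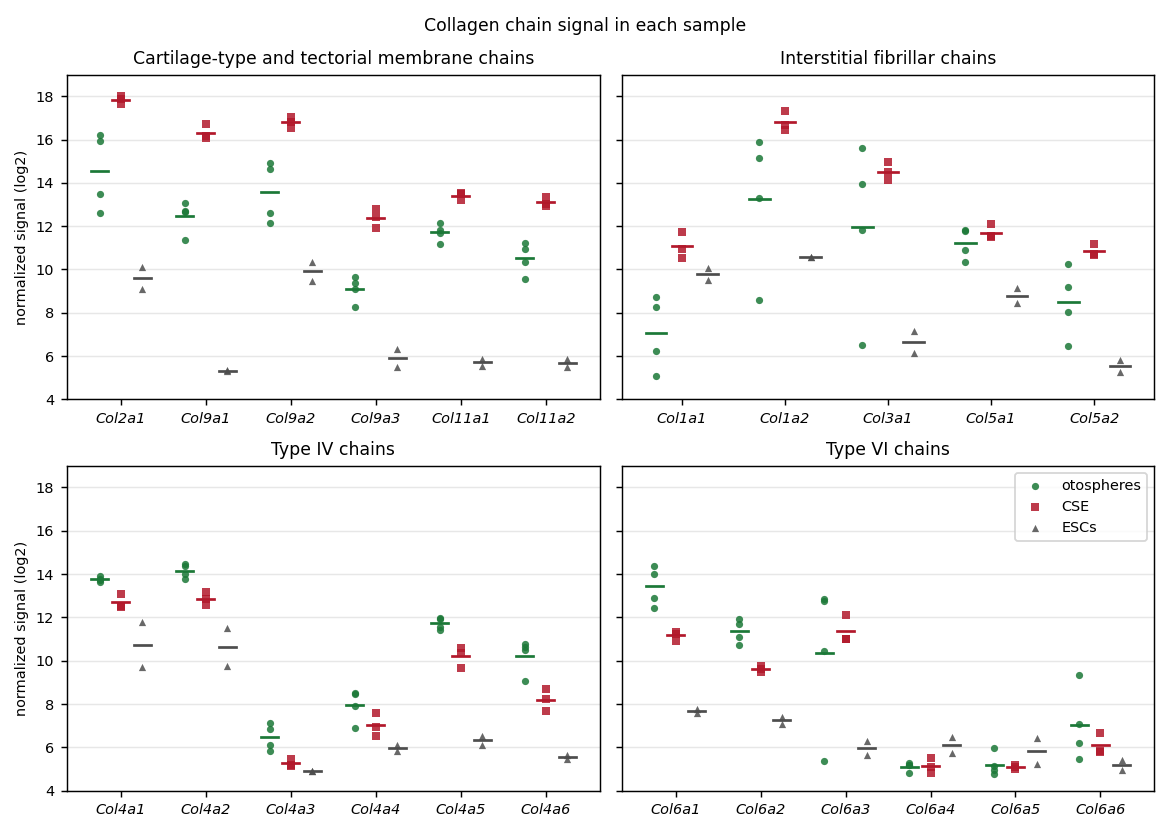
Normalized log2 signal (y axis) of each sample for the chains of cartilage and tectorial membrane fibrils, the interstitial chains, type IV and type VI, with a point per sample and a line at the group mean (4 otosphere, 3 CSE and 2 ESC samples). Levels compare samples within a gene, not genes with each other, and the otosphere points of Col1a2, Col3a1 and Col6a3 spread far wider than those of Col4a1.

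All 6 chains of the cartilage and tectorial membrane fibrils (Col2a1, Col9a1, Col9a2, Col9a3, Col11a1, Col11a2) were lower in otospheres than in CSE and higher in otospheres than in ESCs. Their mean levels in otospheres therefore lay between those of the other groups. Col2a1, the chain of type II collagen and the main fibril protein of cartilage, had log2 levels of 13.48, 12.59, 15.94 and 16.19 in otospheres (in the order OS1 with OS2, OS3, OS4 with OS5, OS6, used throughout), 17.86, 17.62 and 18.03 in CSE and 10.12 and 9.11 in ESCs. The CSE samples were tight, and the otosphere samples on the second slide were higher than those on the first. Otospheres were 9.74-fold lower than CSE, a log2 difference of -3.28 (SE 0.83, adjusted p = 0.0366), which lost the call without OS1 and OS2 or without any of the CSE samples. Against ESCs Col2a1 was higher by 4.93 (SE 0.94, adjusted p = 0.0043). Within slide 1 the difference from ESCs was 2.91 and within slide 2 it was 6.95.

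The FACIT chains Col9a1, Col9a2 and Col9a3 assemble together into type IX collagen, which decorates type II fibrils. Col9a1 had log2 levels of 12.69, 13.09, 12.65 and 11.36 in otospheres, 16.69, 16.07 and 16.15 in CSE and 5.32 and 5.34 in ESCs. The ESC samples had no array well above background, so Col9a1 was at least 130-fold higher in otospheres (adjusted p = 1.03e-05) and at least 1889-fold higher in CSE (adjusted p = 1.26e-06) than in ESCs by limma. From CSE to otospheres it fell by 3.86 on the log2 scale (SE 0.38, adjusted p = 0.000451), or 14.5-fold. Col9a2 was at 12.60, 12.16, 14.91 and 14.66 in otospheres, 16.79, 16.55 and 17.04 in CSE and 10.33 and 9.49 in ESCs, a fall of 9.24-fold from CSE to otospheres (log2 difference -3.21, SE 0.66, adjusted p = 0.0155). As for Col2a1, its second-slide otosphere samples were the higher ones. Col9a3 was at 9.09, 8.25, 9.67 and 9.36 in otospheres, 12.81, 11.92 and 12.40 in CSE and 6.33 and 5.50 in ESCs, 9.74-fold lower in otospheres than in CSE (log2 difference -3.28, SE 0.37, adjusted p = 0.000889). The falls of the type IX chains therefore spanned 3.21 to 3.86 on the log2 scale. Without CSE1 or without CSE3 the Col9a2 call against CSE was lost, and without ES2 its call against ESCs.

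Type XI collagen sits inside type II fibrils and limits their width, and its chain Col11a2 is a known deafness gene. Col11a1 had log2 levels of 11.18, 11.69, 12.15 and 11.81 in otospheres, 13.49, 13.20 and 13.53 in CSE and 5.56 and 5.88 in ESCs. It fell by 1.69 on the log2 scale from CSE (SE 0.23, adjusted p = 0.00233), the smallest fall of the 6 chains. Col11a2 was at 9.57, 10.37, 11.24 and 10.93 in otospheres, 13.03, 12.93 and 13.35 in CSE and 5.48 and 5.88 in ESCs, and fell by 2.58 (SE 0.37, adjusted p = 0.0026). Both chains stood far above ESCs, by 5.99 and 4.85 in otospheres and by 7.68 and 7.43 in CSE. Col27a1, a further fibrillar chain known from cartilage, followed the same order at 8.47, 9.97, 8.82 and 8.65 in otospheres, 10.26, 11.79 and 10.31 in CSE and 5.77 and 6.19 in ESCs. It was 3.51-fold lower in otospheres than in CSE (log2 difference -1.81, SE 0.46, adjusted p = 0.0376), but the call was lost in 8 of 19 alternatives, with slide as a block among them. Of 8 measured cartilage and bone markers 1 was lower in otospheres than in CSE and none was higher (median difference -0.27), and against ESCs 1 was higher and 3 were lower in otospheres. The list's mean log2 level was 6.84 to 7.61 in otospheres, 8.32 to 8.42 in CSE and 6.02 to 6.90 in ESCs, and Matn3 was not well above background in otospheres or CSE. The supporting cell list (9 genes) stood at 8.80 to 9.39 in otospheres and 12.36 to 12.52 in CSE, with Prox1 not well above background in otospheres. The part of these cells in the falls was not tested.

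Promoter sequence from RefSeq (build GRCm38.p6) was held for Col9a1, Col9a2, Col11a1 and Col11a2 but not for Col2a1 or Col9a3. The stretches below run 5′ to 3′ from 170 bases before to 20 bases after the annotated start and are shown because these chains fell together and because Col9a1 has a pair of starts. Capitals mark the letters CCAAT or GGGCGG on either strand, TATAAA on the gene's strand starting 40 to 20 bases before the start, and ACAAAG or ACAATG, letters that SOX proteins bind, on either strand. Both windows of Col9a1 lie on chromosome 1. Its second probe differed from the first, as given further on, but probe positions were not at hand, so no probe is assigned to a start.
Col9a1, first start (chr1:24177440-24177629, plus strand): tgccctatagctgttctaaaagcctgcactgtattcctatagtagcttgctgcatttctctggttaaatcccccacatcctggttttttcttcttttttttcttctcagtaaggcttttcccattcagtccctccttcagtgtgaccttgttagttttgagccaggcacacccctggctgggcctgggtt
Col9a1, second start (chr1:24195033-24195222, plus strand): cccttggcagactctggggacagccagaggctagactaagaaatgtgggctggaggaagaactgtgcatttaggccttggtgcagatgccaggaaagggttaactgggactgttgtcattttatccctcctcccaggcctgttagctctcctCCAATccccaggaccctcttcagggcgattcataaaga
Col9a2 (chr4:121039396-121039585, plus strand): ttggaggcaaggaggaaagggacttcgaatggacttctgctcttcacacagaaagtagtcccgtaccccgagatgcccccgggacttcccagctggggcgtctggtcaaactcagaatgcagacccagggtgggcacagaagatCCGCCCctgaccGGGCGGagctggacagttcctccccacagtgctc
Col11a1 (chr3:114030370-114030559, plus strand): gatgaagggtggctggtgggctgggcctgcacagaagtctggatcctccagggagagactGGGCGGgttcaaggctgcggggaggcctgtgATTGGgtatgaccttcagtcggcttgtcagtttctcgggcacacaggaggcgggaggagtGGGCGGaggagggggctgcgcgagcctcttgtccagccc
Col11a2 (chr17:34038968-34039157, plus strand): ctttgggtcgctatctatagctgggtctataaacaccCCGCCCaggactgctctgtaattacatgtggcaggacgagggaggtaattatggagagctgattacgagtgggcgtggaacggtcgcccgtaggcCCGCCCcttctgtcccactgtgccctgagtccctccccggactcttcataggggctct
The stretches of Col9a2, Col11a1 and Col11a2 held GGGCGG, and those of the second Col9a1 start and of Col11a1 held CCAAT. None of the 5 held the SOX letters, or TATAAA at the positions searched. The TATAAA of Col11a2 lies outside these positions.

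Of the interstitial chains Col1a1, Col1a2, Col3a1, Col5a1 and Col5a2, only Col1a1 passed the test between otospheres and CSE, and their levels ran widely over the otosphere samples. Col1a2, a chain of type I collagen, the main fibril of bone, skin and tendon, had log2 levels of 15.17, 15.89, 13.30 and 8.61 in otospheres, 17.34, 16.65 and 16.42 in CSE and 10.55 and 10.59 in ESCs. OS3 was close to CSE, whereas OS6 was below both ESC samples. The difference of otospheres from CSE was -3.56 (SE 1.48, adjusted p = 0.193) and did not pass the test, although the groups did not overlap. Col3a1, the chain of type III collagen, which accompanies type I in soft tissue, was at 13.96, 15.59, 11.82 and 6.51 in otospheres, 14.94, 14.51 and 14.11 in CSE and 6.12 and 7.16 in ESCs. Here OS3 was above every CSE sample and OS6 was at the ESC level. Its difference from CSE was -2.55 (SE 1.78, adjusted p = 0.506), and it was 0.05 within slide 1 and -4.94 within slide 2. In CSE, Col1a2 was 75.2-fold and Col3a1 235-fold higher than in ESCs (adjusted p = 0.0271 and 0.0224 by limma). Both of these calls were lost without any 1 of the CSE or ESC samples.

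Col1a1, the partner of Col1a2 in type I collagen, was at 8.25, 8.71, 6.25 and 5.08 in otospheres, 10.94, 11.75 and 10.55 in CSE and 9.50 and 10.08 in ESCs. It was 16.1-fold lower in otospheres than in CSE (log2 difference -4.01, SE 0.81, adjusted p = 0.014), and all otosphere samples were also below both ESC samples (-2.72, adjusted p = 0.0565). Of the 6 otosphere arrays 5 were well above background, and OS6 was at the 95th percentile of its negative controls (5.08). The call against CSE was lost without CSE1 or without CSE2. Both type I chains were above ESCs in every CSE sample, by 1.29 for Col1a1 (adjusted p = 0.379). In otospheres Col1a1 was below ESCs by the fit and Col1a2 above (2.67, adjusted p = 0.288), and neither difference passed the test. Col5a1 and Col5a2 encode chains of type V collagen, which starts type I fibrils. Col5a1 was at 11.81, 11.76, 10.89 and 10.35 in otospheres, 12.09, 11.54 and 11.48 in CSE and 9.12 and 8.43 in ESCs, with no call between otospheres and CSE (-0.50, adjusted p = 0.556) and higher levels than ESCs in otospheres (2.42, adjusted p = 0.00306) and CSE (2.92, adjusted p = 0.00148). Col5a2 was at 9.19, 10.27, 8.06 and 6.47 in otospheres, 11.18, 10.70 and 10.69 in CSE and 5.26 and 5.84 in ESCs, and no ESC array was well above background. Against the measured ESC levels it was 7.70-fold higher in otospheres (adjusted p = 0.0304) and 39.6-fold higher in CSE (adjusted p = 0.0022) by limma. The otosphere call was lost with an offset of 50 and without OS1 and OS2, ES1 or ES2. Its difference between otospheres and CSE was -2.36 (SE 0.75, adjusted p = 0.0853).

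The promoter stretches of Col1a2 and Col3a1, drawn in the same way, are shown because these chains were high in the same otosphere samples and low in the same ones.
Col1a2 (chr6:4505448-4505637, plus strand): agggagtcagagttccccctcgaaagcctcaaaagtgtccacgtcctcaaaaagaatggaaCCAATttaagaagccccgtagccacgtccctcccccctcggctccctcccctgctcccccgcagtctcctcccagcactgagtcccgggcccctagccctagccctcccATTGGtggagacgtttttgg
Col3a1 (chr1:45311368-45311557, plus strand): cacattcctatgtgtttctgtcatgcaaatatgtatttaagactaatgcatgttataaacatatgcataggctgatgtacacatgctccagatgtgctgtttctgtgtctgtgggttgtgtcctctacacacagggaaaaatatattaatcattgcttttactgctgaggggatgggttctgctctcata
That of Col1a2 held CCAAT on both strands. That of Col3a1 held no marked letters, since its TATAAA lies outside the positions searched. Col3a1 and Col5a2 are neighbours on chromosome 1 with no coding gene between them in the RefSeq table.

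All 6 type IV chains were higher in otospheres than in ESCs, and Col4a3, Col4a5 and Col4a6 were also higher than in CSE. Col4a1 and Col4a2 form the type IV collagen found in most basement membranes. Col4a1 was at 13.64, 13.74, 13.76 and 13.91 in otospheres, 13.07, 12.54 and 12.47 in CSE and 9.71 and 11.79 in ESCs. Col4a2 was at 14.01, 13.79, 14.45 and 14.40 in otospheres, 13.18, 12.87 and 12.57 in CSE and 9.75 and 11.54 in ESCs. For both, every otosphere sample was above every CSE sample, yet the differences of 1.07 (adjusted p = 0.166) and 1.29 (adjusted p = 0.0738) did not pass. Without either ESC sample, which then left that group with 1 sample assumed to vary like the others, both chains were called. The ESC samples differed, with ES2 (D3) above ES1 (G4-2) for both chains, and they lay on different slides, so line and slide cannot be told apart. Otospheres were 8.07-fold and 11.5-fold above ESCs (adjusted p = 0.00158 and 0.000492 by limma). The Col4a1 probe is printed on 10 spots, and the table of log2 values deposited by the authors lists it at 0.98 to 1.39 where the levels computed here run from 9.71 to 13.91. No call of Col4a1 held in that table.

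Col4a5 assembles with Col4a3 and Col4a4, or with Col4a6, and defects in Col4a3, Col4a4 and Col4a5 cause Alport syndrome with hearing loss. Col4a5 was at 11.55, 11.99, 11.95 and 11.44 in otospheres, 10.34, 9.68 and 10.59 in CSE and 6.11 and 6.53 in ESCs. It was 2.88-fold higher in otospheres than in CSE (log2 difference 1.53, SE 0.26, adjusted p = 0.00595), a call held by all 19 tested alternatives, and 42.5-fold higher than in ESCs (adjusted p = 5.58e-06). Col4a6 was at 10.75, 10.64, 10.49 and 9.04 in otospheres, 8.69, 7.68 and 8.25 in CSE and 5.66 and 5.48 in ESCs. All otosphere samples were above CSE, with OS6 the lowest, and the difference was 2.02 (SE 0.42, adjusted p = 0.0161). Without CSE2 or without CSE3 this call was lost. Col4a3 was dim, at 6.84, 6.13, 7.11 and 5.81 in otospheres, 5.47, 5.20 and 5.13 in CSE and 4.91 and 4.92 in ESCs, and was higher in otospheres than in CSE by 1.21 (SE 0.30, adjusted p = 0.0357). It was at least 2.13-fold higher than in ESCs (adjusted p = 0.00894 by limma), where no array was well above background, and in CSE 1 of 3 arrays was. The Col4a3 call against CSE was lost without OS1 and OS2, without OS4 and OS5, or without any CSE sample. Col4a4 was at 8.45, 7.89, 8.51 and 6.90 in otospheres, 6.96, 6.53 and 7.57 in CSE and 5.85 and 6.10 in ESCs, with a difference from CSE of 0.92 (adjusted p = 0.225) and from ESCs of 1.96 (adjusted p = 0.0117), and the latter call was lost without ES1.

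Type IV genes lie in facing pairs. The annotated starts of Col4a1 and Col4a2 are 21 bases apart on chromosome 8 in GRCm38.p6, on opposite strands, and their promoter windows of 300 bases share 78 bases. Those of Col4a6 and Col4a5 are 1343 bases apart on chromosome X. The promoter stretches of the latter pair are shown because both genes were called higher in otospheres than in CSE and in ESCs.
Col4a5 (chrX:141475249-141475438, plus strand): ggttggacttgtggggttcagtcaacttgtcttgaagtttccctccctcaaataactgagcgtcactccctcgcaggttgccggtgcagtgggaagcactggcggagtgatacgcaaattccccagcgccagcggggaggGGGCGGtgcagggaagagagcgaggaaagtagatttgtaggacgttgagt
Col4a6 (chrX:141474057-141474246, minus strand): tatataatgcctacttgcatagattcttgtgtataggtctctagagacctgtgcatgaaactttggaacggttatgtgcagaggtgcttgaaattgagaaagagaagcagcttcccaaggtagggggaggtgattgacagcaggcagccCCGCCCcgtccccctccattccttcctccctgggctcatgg
Each stretch held GGGCGG once, on the strand of the gene for Col4a5 and on the other strand for Col4a6. The log2 differences between otospheres and CSE were 1.07 and 1.29 in the first pair and 2.02 and 1.53 in the second. The endothelial marker list, whose cells rest on basement membranes, was lower, at 6.75 to 7.59 in otospheres and 9.28 to 10.02 in CSE over 7 genes. The pericyte and smooth muscle list (8 genes, with 3 up and 2 down in otospheres against CSE) was at 7.69 to 9.14 in otospheres and 6.87 to 7.34 in CSE, and its part in the type IV levels was not tested.

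Type VI collagen is assembled from Col6a1, Col6a2 and a longer chain, usually Col6a3. Col6a1 had log2 levels of 14.00, 14.39, 12.92 and 12.43 in otospheres, 11.23, 11.35 and 10.93 in CSE and 7.57 and 7.78 in ESCs. Otospheres were 4.80-fold above CSE (log2 difference 2.26, SE 0.44, adjusted p = 0.0111) and 54.1-fold above ESCs (adjusted p = 6.5e-05), with no overlap, and without CSE3 the call against CSE was lost. Col6a2 was at 11.70, 11.92, 11.08 and 10.73 in otospheres, 9.47, 9.77 and 9.60 in CSE and 7.43 and 7.07 in ESCs, again with every otosphere sample above every CSE sample, and differed from CSE by 1.74 (SE 0.29, adjusted p = 0.00534). Both genes are neighbours on chromosome 10. Col6a3, in contrast, was at 12.85, 12.74, 10.47 and 5.38 in otospheres, 12.12 in CSE1, 11.01 in CSE3, just below that in CSE2, and 5.63 and 6.29 in ESCs. OS1 with OS2 and OS3 were above all CSE samples, OS4 with OS5 was below them, and OS6 was below both ESC samples. Of the 6 otosphere arrays 5 were well above background for Col6a3. Its difference from CSE was -1.02 (SE 1.59, adjusted p = 0.83), and it was 1.23 within slide 1 and -3.09 within slide 2.

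The remaining long chains, Col6a4, Col6a5 and Col6a6, were dim. Col6a4 was at 5.17, 4.82, 5.21 and 5.28 in otospheres, 5.08, 4.84 and 5.53 in CSE and 6.48 and 5.77 in ESCs, and no otosphere or CSE array was well above background. ESCs were 2.01-fold above otospheres at the measured levels (adjusted p = 0.0226) and at least 1.87-fold above CSE (adjusted p = 0.0313) by limma. Of the 2 ESC arrays 1 was well above background, and both calls were lost without ES1. The CSE call was also lost without OS4 and OS5, without CSE1 or without CSE2. Col6a5 was at 5.15, 5.96, 4.97 and 4.76 in otospheres, 5.18, 5.09 and 5.00 in CSE and 6.43 and 5.24 in ESCs, with no call. Col6a6 was at 7.08, 9.33, 6.20 and 5.47 in otospheres, 5.78, 6.67 and 5.85 in CSE and 4.98 and 5.43 in ESCs. OS3 held the highest level of Col6a6, and no comparison passed the test.

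The largest fall from CSE to otospheres was that of Col8a2, a chain of type VIII collagen, a short-chain network known from the cornea and from vessels. Col8a2 had log2 levels of 6.09, 6.38, 7.22 and 5.73 in otospheres, 11.33, 10.54 and 11.01 in CSE and 6.67 and 6.96 in ESCs. Otospheres and ESCs overlapped, and CSE stood above both, 24.3-fold above otospheres (log2 difference -4.60, SE 0.35, adjusted p = 0.000139). Its partner Col8a1 was at 9.67, 10.70, 8.68 and 6.32 in otospheres, 8.59, 7.97 and 8.30 in CSE and 5.05 and 8.23 in ESCs with no call (0.56, adjusted p = 0.866), so these partners did not share a called difference. Col14a1, a FACIT chain that binds type I fibrils, was at 7.10, 6.85, 5.88 and 4.92 in otospheres, 10.69, 10.56 and 10.78 in CSE and 5.12 and 5.53 in ESCs. It was 22.5-fold lower in otospheres than in CSE (log2 difference -4.49, SE 0.47, adjusted p = 0.000604 by limma), with 5 of 6 otosphere arrays well above background. OS6 lay below the 95th percentile of its negative controls (5.08), so this fold includes a level at background. In CSE Col14a1 was at least 39.3-fold above ESCs (adjusted p = 0.000182 by limma), where no array was well above background. Col22a1, a FACIT chain known from tissue junctions, was at 5.48, 5.32, 5.13 and 5.13 in otospheres, 8.74, 8.35 and 8.71 in CSE and 8.29 and 5.91 in ESCs. Only 2 of 6 otosphere arrays had Col22a1 well above background, and its otosphere levels lay near the 95th percentile of the negative control spots (5.01 to 5.25 on these arrays), so no fold is given. The log2 difference from CSE was -3.33 (SE 0.46, adjusted p = 0.00239), and ES1 stood with the CSE samples while ES2 was near the otospheres. Its lower level in otospheres than in ESCs (-1.83, adjusted p = 0.0298) lost the call without ES1 or without OS3, OS6 or OS4 and OS5. Col7a1, the anchoring fibril chain of epithelia, fell by 1.66 on the log2 scale (SE 0.45, adjusted p = 0.0477), a call held by 6 of 19 alternatives.

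Among the chains not named so far, Col16a1 and Col20a1 (FACIT) and Col26a1 were higher in both otospheres and CSE than in ESCs without a call between the former. The CSE call of Col20a1 was lost without CSE3, ES1 or ES2. Col26a1 was at 12.73, 13.45, 12.52 and 10.26 in otospheres, 14.31, 13.90 and 14.53 in CSE and 8.24 and 7.32 in ESCs, and Col16a1 differed from ESCs by 3.86 in otospheres (adjusted p = 0.003) and 5.73 in CSE (adjusted p = 0.000485). Col18a1, the multiplexin from which endostatin is cut, was bright in every sample, at 14.66, 13.60, 15.25 and 15.38 in otospheres, 14.65, 14.51 and 15.05 in CSE and 13.74 and 13.73 in ESCs, and no comparison passed the test. Col10a1, the chain of hypertrophic cartilage, stood well above background on 2 of 3 CSE arrays and on none of the otosphere or ESC arrays. With the brightest probe of each gene, the transmembrane chains Col13a1, Col17a1, Col23a1 and Col25a1 had no call in any comparison. Col25a1 was at 7.92, 10.90 and 7.38 in the CSE samples, with CSE2 the highest. Col24a1 passed only between CSE and ESCs (1.95, adjusted p = 0.0436), a call lost in 8 of 19 alternatives, among them without OS4 and OS5, CSE1, CSE2, ES1 or ES2. Col5a3, Col15a1 and Col28a1 passed in none.

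**Figure D3:**
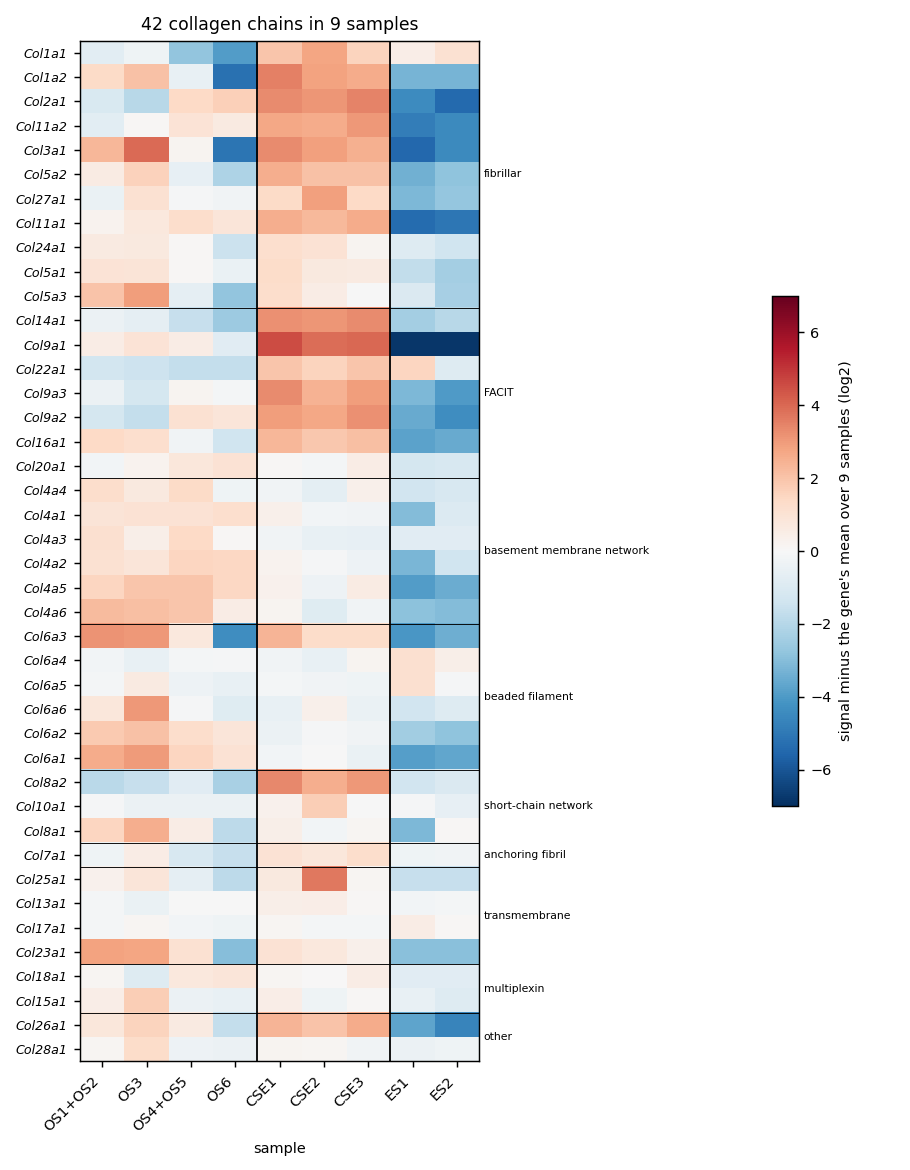
Signal of the 42 tested chains (rows, by class) in the 9 samples (columns), as the log2 difference from each gene's mean over the samples, blue below and red above. The rows of Col1a2, Col3a1 and Col6a3 turn from red to blue among the otosphere samples, and the type IV rows stay red in nearly all of them.

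Otosphere samples differed among themselves in the interstitial chains. The SD over the 4 otosphere samples had a median of 0.79 on the log2 scale over the 42 chains, against 0.26 over all tested probes. It was over 1 for 16 chains, as for 4.37% of all probes. Col3a1 (SD 3.95), Col6a3 (3.50) and Col1a2 (3.28) were the widest, and only 0.0104% of tested probes had a larger SD than Col3a1. In CSE the SD of the same chains was 0.42, 0.64 and 0.48. For 25 chains (59.5% against 12.9% of all probes) both samples of the first slide were above OS4 with OS5, which was above OS6. All 5 interstitial chains, Col5a3, Col6a1 to Col6a3 and 16 others were of this kind. Among the others, Col6a5, Col17a1, Col22a1 and Col28a1 were well above background on only 2, 0, 2 and 1 of the 6 otosphere arrays. The order of their samples is therefore an order of levels near background. Col5a3 was at 11.24, 12.18, 8.61 and 6.50 and Col23a1 at 11.26, 11.21, 9.52 and 5.47. In 11 chains (26.2% against 27.8%) both samples of the first slide were below those of the second, among them Col2a1, Col9a2, Col9a3, Col11a1, Col11a2, Col4a1 and Col4a2.

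Between the otosphere samples of the 2 slides, limma called 0 of the 42 chains at an adjusted p under 0.05, against 0.0896% of all probes. At an unadjusted p under 0.05 it called 24, against 11.2% of all probes, of which 19 were lower and 5 higher on the second slide. The median slide difference over the chains was -0.89, against 0.05 over all probes. For Col3a1 it was -5.61, for Col1a2 -4.57, for Col6a3 -4.87, for Col2a1 3.03 and for Col9a2 2.41. Mesenchyme and fibroblast markers (12 genes) ran in the same order, with a mean log2 level of 10.22, 10.62, 9.25 and 7.52 in the otosphere samples, 10.45 to 11.04 in CSE and 5.89 to 6.30 in ESCs, where 6 of them were not well above background. Between otospheres and CSE 2 of the 12 were lower and none was higher. Among them Pdgfrb was at 11.59, 11.92, 10.18 and 5.58 and Tbx18 at 9.83, 10.59, 8.85 and 5.47, while Lum, at 14.90, 14.39, 15.24 and 15.05, did not follow. The hair cell list (7 genes) was at 7.73, 7.14, 8.72 and 9.25, lowest in OS3 and highest in OS6. The part of these cells in the collagen levels was not tested.

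**Figure D4:**
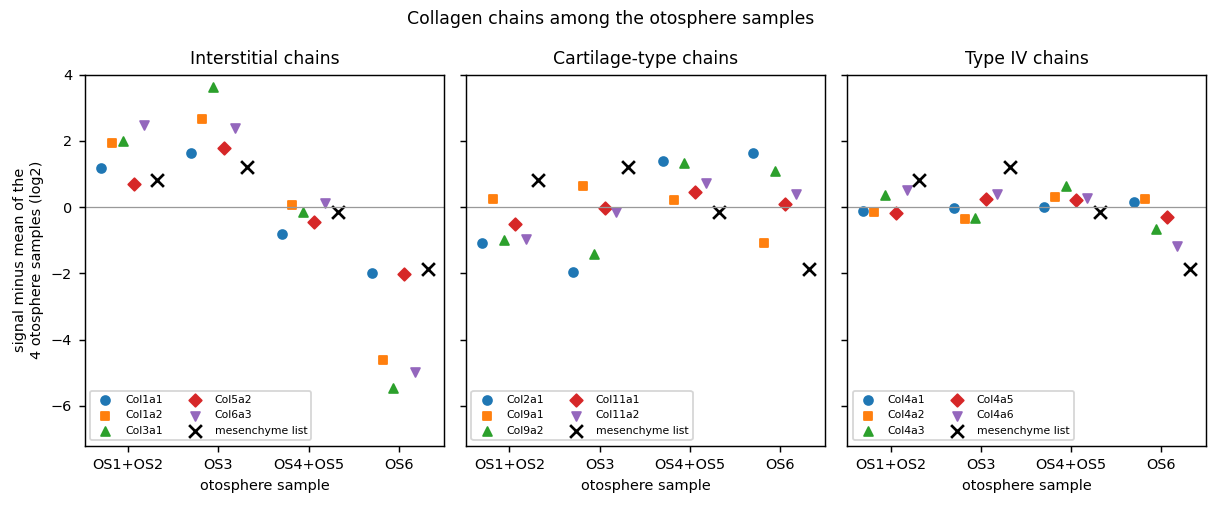
Log2 signal minus the mean of the 4 otosphere samples (y axis) in each otosphere sample (x axis), for interstitial chains with Col6a3, cartilage-type chains and type IV chains, with a cross for the mean of 12 mesenchyme and fibroblast markers. In OS6 the interstitial chains and the cross are lowest, and Col4a1, Col4a2 and Col4a5 stay close to 0 in all 4 samples.

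Without OS6, which held their lowest otosphere level, further chains were called higher in otospheres than in ESCs. They were Col1a2 (4.22, adjusted p = 0.00262), Col3a1 (7.15, adjusted p = 0.00107), Col6a3 (6.06, adjusted p = 0.000689) and Col23a1 (5.14, adjusted p = 0.000292), with Col5a3, Col8a1, Col14a1 and Col24a1. With OS6 their differences from ESCs were 2.67, 5.33, 4.40 and 3.84 for the former 4, with adjusted p of 0.288, 0.085, 0.107 and 0.072 by limma. Leaving out the lowest sample raises a difference by itself, so the calls without OS6 add no separate support.

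Of the 43 genes, 14 had more than 1 probe, and the probes did not always move together. The second probe of Col9a1 was near 6.11 in otospheres, 6.35 in CSE and 6.52 in ESCs on the log2 scale, and no comparison passed the test for it. For Col4a6 the second probe was at 8.04, 7.65 and 8.06, also with no call, and with the mean of its probes Col4a6 was not called between otospheres and CSE. A further probe of Col4a4 was called between otospheres and CSE (1.39, adjusted p = 0.00551), which the brightest probe was not. For Col25a1, further probes were called higher in CSE than in ESCs (adjusted p = 0.0117 and 0.0459 by limma). Its brightest probe (adjusted p = 0.0532) and its remaining probe (adjusted p = 0.141) were not called in that comparison. Col6a4 had no call against ESCs with its second probe, in otospheres (-0.16, adjusted p = 0.63) or in CSE (-0.34, adjusted p = 0.31 by limma). The second probes of Col8a2 and Col14a1 were called in the same direction as the first, with smaller falls of 1.03 and 1.89 on the log2 scale.

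Collagen chains are modified, folded, trimmed and cross-linked by further proteins, of which 51 of a list of 52 genes were measured (Itga10 had no probe). Between otospheres and CSE 7 of them were higher (13.7% against 4.84% of all probes) and 3 lower (5.88% against 6.19%), with a median difference of -0.12, against 0.02 over all probes. Against ESCs, 25 were higher (49% against 12.1%) and 2 lower (3.92% against 15.6%) in otospheres, and 23 higher (45.1% against 13.2%) and 3 lower (5.88% against 15.6%) in CSE. Among the lysyl oxidases, which cross-link collagen, Loxl4 had log2 levels of 9.75, 9.39, 10.50 and 10.63 in otospheres, 5.30, 5.21 and 5.05 in CSE and 7.17 and 6.19 in ESCs. No CSE array had Loxl4 well above background, so otospheres were at least 27.9-fold above CSE (adjusted p = 0.000109 by limma). Lox was at 10.64, 11.85, 10.13 and 8.59 and 7.82, 7.88 and 7.53 in otospheres and CSE, a rise of 2.56 (SE 0.67, adjusted p = 0.0427), and again OS6 was the lowest otosphere sample. Loxl1, Loxl2 and Loxl3 differed from CSE by 0.69, 1.98 and -0.65 (adjusted p = 0.0513, 0.351 and 0.348), and Loxl2 was spread like the interstitial chains, at 12.50, 13.53, 10.19 and 8.20 in otospheres.

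Of the lysyl hydroxylases and collagen glycosyltransferases, Plod2, which prepares the chain ends for cross-links, was higher in otospheres than in CSE by 1.75 (SE 0.29, adjusted p = 0.00501). Plod1, Plod3, Colgalt1 and Colgalt2 had differences of -1.0, 0.52, 0.66 and -0.79 (adjusted p = 0.103, 0.169, 0.112 and 0.439). Pcolce and Pcolce2, which both enhance the removal of the end propeptide, went in opposite directions. Pcolce rose by 1.37 (SE 0.17, adjusted p = 0.00134), whereas Pcolce2 was at 8.05, 6.87, 9.54 and 10.22 in otospheres and 13.33, 13.39 and 13.64 in CSE and fell by 4.78 (SE 0.69, adjusted p = 0.00276). The collagen receptor subunits Itga1 and Itgb1, which pair with each other, were higher in otospheres by 1.17 (adjusted p = 0.0152) and 1.21 (adjusted p = 0.014). The tendon factor Scx was higher by 1.51 (adjusted p = 0.0331). Sox9, which drives Col2a1 in cartilage, was at 9.58, 10.82, 10.88 and 10.44 in otospheres, 10.76, 11.05 and 11.53 in CSE and 5.47 and 6.20 in ESCs, with no call between the former (-0.68, adjusted p = 0.317). The prolyl isomerases Ppib and Fkbp10, which help chains fold, fell by 0.70 (adjusted p = 0.0328) and 0.99 (adjusted p = 0.0142).

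**Figure D5:**
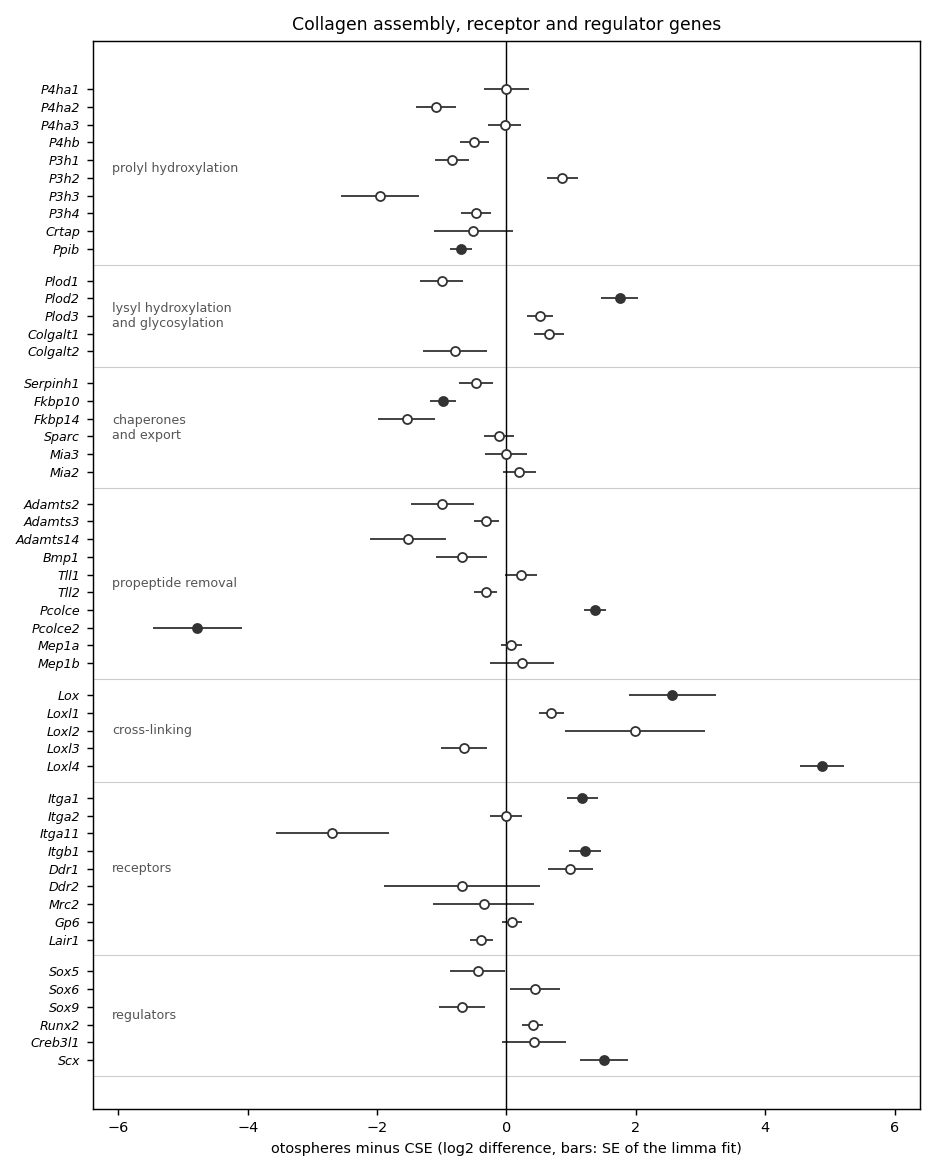
Difference between otospheres and CSE (log2, x axis) for 51 genes of collagen assembly, receptors and regulators, grouped by role on the y axis, with bars for the SE of the limma fit and filled points for an adjusted p under 0.05. Loxl4 lies farthest to the right and Pcolce2 farthest to the left.

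Promoter windows from 250 bases before to 50 bases after the start were held for 35 of the 43 collagen genes (38 windows), not for Col1a1, Col2a1, Col4a3, Col5a2, Col9a3, Col14a1, Col22a1 and Col26a1. GC content had a median of 59.8% over these windows against 52.7% over 32851 RefSeq windows of the same length. GGGCGG was present on either strand in 23 windows (60.5% against 35.7%), CCAAT in 13 (34.2% against 37.4%) and ACAAAG or ACAATG in 5 (13.2% against 28.6%). TATAAA on the gene's strand, starting 40 to 20 bases before the start, was present in 1, that of Col10a1 (2.63% against 1.99%). These are matches of letters only.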

How the data were processed

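RNA of 11 samples was hybridized to single-colour Agilent arrays (50 or 100 ng input RNA), and the deposited scanner files (Feature Extraction 10.7.3.1) hold spot intensity values with no normalization between arrays. The authors also deposited a table of normalized log2 values for 43657 probes, used only as an alternative. Here, in R 4.3.3 with limma 3.58.1, the median spot intensity was background corrected (normexp, offset 16), log2 transformed and quantile normalized over all spots, spots with outlier flags were left out, and spots of a probe were averaged. Before the fit 2 pairs of otosphere arrays (OS1 and OS2; OS4 and OS5) were averaged, because their difference was below the noise between spots, which 2 of 19 pairs within groups were. A probe was tested if on 2 or more arrays its signal exceeded the 95th percentile of the 308 negative control spots by 10% or more, which kept 47997 of 55681 probes. Accessions were matched to the RefSeq table (GRCm38.p6), which named 27435 probes. A linear model with 3 groups was fitted to all samples with empirical Bayes moderation, and p-values were adjusted by Benjamini-Hochberg over all tested probes at 0.05. The number of arrays limits the precision.

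The members and the lists were chosen with earlier results of these data known. Full values are given for the 5 largest called rises and falls between otospheres and CSE, for the chains of the cartilage and tectorial membrane fibrils, and for the interstitial, type IV and type VI chains. Other members are given by class, with values for some of them. Alternatives were an offset of 0 or 50, the processed signal scaled to the 75th percentile, the deposited table, a filter at 3 arrays or none, separate arrays without or with the replicate number as a block, slide as a block, the mean of a gene's probes, the methods' F-test, and each sample left out in turn. The mean of the probes for the slide comparison was added after seeing the data. The script was tested on simulated data with known changes.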

Additional observations from a re-analysis of the deposited data

Results flagged for a closer look

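In each of the 42 tested collagen chains, the highest and the lowest of the 4 otosphere samples were compared with the nearest other sample. In 2 chains the gap, as a fraction of the range of the samples, was above Dixon's 95% critical value, which chance exceeds in about 1 in 20 groups. The level of Col4a6 in OS6 was 9.04 on the log2 scale, and the nearest otosphere sample was at 10.49. The level of Col10a1 in OS1 with OS2 was 5.27, and the nearest was at 4.95, but no otosphere array was well above background for this probe.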

How the results depend on the processing

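All 17 chains that differed between otospheres and CSE kept their sign in 19 alternatives and within each slide. Their otosphere and CSE samples did not overlap, so within a slide or with a sample left out the sign was fixed in advance. Of the 17 chains, 8 (Col4a5, Col6a2, Col8a2, Col9a1, Col9a3, Col11a2, Col14a1, Col22a1) passed the test in all 19. Col7a1 held in 6, Col27a1 in 11 and Col4a3 in 13. Leaving out each sample in turn gave 2 to 7 chains higher in otospheres than in CSE and 7 to 14 lower. Against ESCs it gave 18 to 28 higher and 0 to 3 lower in otospheres, 19 to 27 higher and 0 to 1 lower in CSE, and 22 to 31 in the F-test. With the replicate block and separate arrays, 1 chain was lower in otospheres than in ESCs, Col1a1, which was not among the 2 called otherwise (Col6a4 and Col22a1), and 0 in place of 1 in CSE. Deviations from the group means of same-numbered otosphere and CSE arrays correlated at 0.356, -0.341 and -0.392. Pairs of unlike number were not compared, and OS1 and OS2 were nearly the same. These values therefore cannot tell whether the replicate numbers pair the samples. The mean of all probes of a gene left 1 of these chains, Col22a1, lower in otospheres than in ESCs. Between the otospheres of the slides, 0 chains became 2 with an offset of 50, 14 with separate arrays, and 0 to 10 when a sample was left out (10 without OS4 and OS5, 3 without OS1 and OS2, 2 without either ESC sample). The methods' F-test called 22 chains in place of 27. The cause of these shifts was not tested. The share of all probes higher in otospheres than in CSE moved too, from 4.84% in the main fit to 7.67% with separate arrays. With an otosphere or CSE sample left out it ran from 2.67% (without CSE1) to 5.48% (without OS3). The other counts stand here without that share, so a shift cannot be read as particular to the collagen chains. Among single chains, 0 values that had passed the test changed sign. Where groups do not overlap, leaving out a sample cannot change a sign.

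In the deposited log2 table, 354 of 372 probes printed on 10 spots are listed below a fraction of 0.2 of the level computed here, with a median ratio of 0.0994, against 0.976 for probes on 1 spot and 0.498 for those on 2. Col4a1 is one of them, and its difference of otospheres from ESCs was 0.30 in that table in place of 3.01 (adjusted p = 0.264 by limma). The limits are 2 ESC samples of different lines on different slides, 3 CSE samples, and otosphere preparations that cannot be told apart from the slides. A level below background is only a bound. For a fold given as at least, levels under the lowest signal well above background in their sample were raised to it. Such a fold leaves out the spread between samples.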
